A study of Homo sapiens with 4 samples.

Results

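The genes described here encode the proteasome. They are the protein-coding rows of the deposited table whose gene name begins with PSMA to PSMG and a digit, and 48 of the 20665 rows fit. They comprise 7 alpha and 7 beta genes of the 20S core, 3 beta genes of the immunoproteasome, 9 genes of the base and 8 of the lid of the 19S cap, 5 genes of activators and an inhibitor, 7 assembly factors, and 2 rows that share the name pattern without an established role in the particle. RNA was sequenced from NALM6, a cell line started from a human acute lymphoblastic leukemia of B cell precursors and grown in RPMI with serum. In the 2 AICAR libraries the cells had been held in glucose-free medium for 24 h before 45 min with 15 mM AICAR. AICAR is a nucleoside that cells turn into an analog of AMP, the signal that activates the energy-sensing kinase AMPK. The 2 vehicle libraries came from cells given the solvent DMSO for 45 min. The labels do not say whether these cells were also deprived of glucose, so the effects of AICAR and of glucose deprivation cannot be told apart. Nothing in the labels says that replicates came from separate cultures, so p-values measure the spread between these libraries, which may be technical.

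The proteasome is the main protease of the cytosol and nucleus and degrades proteins that carry ubiquitin chains. Its 20S core is a barrel of stacked rings, with alpha subunits in the outer rings as a gate and beta subunits in the inner rings, some of which hold the proteolytic sites. The 19S cap binds the ubiquitin chain, removes it, and unfolds the substrate with a ring of ATPases that threads it into the core. Other activators (PA28, PA200) open the core without ATP, dedicated chaperones assemble core and base, and in lymphoid cells alternative catalytic subunits form the immunoproteasome, which favours peptides for MHC class I. When proteasome activity falls short, the transcription factor NFE2L1 raises transcription of subunit genes together.

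The AICAR libraries held 32318376 and 34458010 expected counts and the vehicle libraries 33919915 and 36769116. After a filter on low counts 13626 genes were tested, and all 48 proteasome genes were among them. All 12 marker genes of B cell precursors were tested, with summed levels of 3923 and 4015 CPM with AICAR against 3745 and 3796 CPM with vehicle (CPM, read counts scaled to the TMM-adjusted library size). Markers of T, myeloid and erythroid cells summed to at most 3.38 CPM per list in any library, and of the 7 T cell names 2 had a row.

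Transcripts of the proteasome were higher with AICAR across most of the particle, by small amounts. Of the 48 genes, 29 rose, 2 fell and 17 did not pass the test (quasi-likelihood test of edgeR with Benjamini-Hochberg adjustment, threshold 0.05). Of all tested genes 19.4% rose and 19.7% fell. The median log2 fold change of the 48 was 0.16, against -0.0022 for all tested genes and 0.0055 for tested protein-coding genes. The genes that rose did so by at most 19.8%. In bulk RNA of this kind, a change in RNA per cell and a change in the mix of cells cannot be told apart.

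In 39 of the 48 genes both AICAR libraries lay above both vehicle libraries, which held for 34.3% of all tested genes. In 5 genes both lay below, against 34.9% of all tested genes, and in 4 genes the groups overlapped. Summed over the 48 genes, the deposited FPKM (fragments per kilobase of transcript, scaled by library size) were 6094 and 6066 in the AICAR libraries and 5703 and 5591 in the vehicle libraries, a ratio of 1.08. Proteasome transcripts took 0.631% and 0.626% of all counts with AICAR, and 0.592% and 0.585% with vehicle. By the q-values of the authors' deposited table, 26 of the 48 were higher and 1 was lower at a threshold of 0.05, where 13.3% of the 12652 genes with a q-value were higher and 12.5% lower. The count of higher genes depended on the scaling. With libraries scaled by total counts alone, 15 proteasome genes rose and 4 fell, and 10.2% of all genes rose. Of the 29 rises, 12 passed under each of the 16 other settings tried at the same threshold, namely PSMA7, PSMB1, PSMB4, PSMB7, PSMC3, PSMC4, PSMD1, PSMD2, PSMD4, PSME1, PSME2 and PSMF1.

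**Figure D1:**
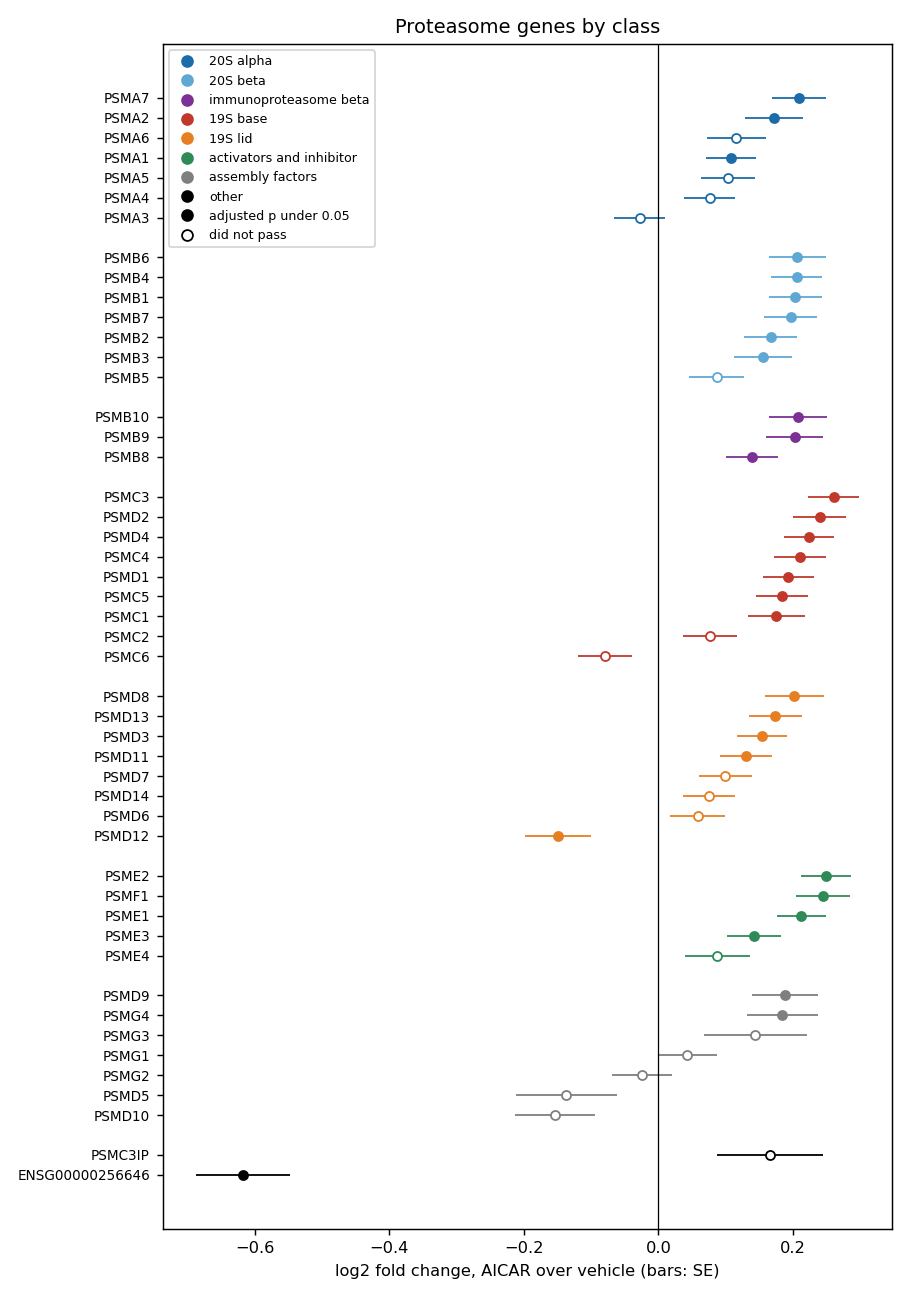
Log2 fold change (AICAR over vehicle, x axis) of each of the 48 genes with its standard error, grouped by class from the 20S alpha genes at the top to the 2 rows without a role at the bottom. Filled points passed the test: 29 lie right of 0 and 2 left of it, PSMD12 at -0.15 and the row ENSG00000256646 at -0.62.

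Of the 7 alpha genes, which form the outer rings of the core, 3 rose (42.9%), against 19.4% of all tested genes. The median log2 fold change was 0.11. PSMA7 (ENSG00000101182), the alpha4 subunit, had 252 and 255 CPM with AICAR against 213 and 225 CPM with vehicle. The groups did not overlap, and the rise was 0.21 ± 0.041 on the log2 scale (SE; edgeR adjusted p = 0.00185). PSMA3 (ENSG00000100567), the alpha7 subunit, had 109 and 107 CPM with AICAR and 109 and 111 CPM with vehicle, so that the groups overlapped. Its log2 fold change was -0.03 ± 0.038 (SE; edgeR adjusted p = 0.607).

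PSMA2 (alpha2) and PSMA1 (alpha6) were the other rises, with log2 fold changes of 0.17 and 0.11. PSMA1 lost its call under 9 of the 16 other settings, among them without vehicle replicate 2 and without each AICAR library, where its value was 0.085, 0.092 and 0.13. PSMA4, PSMA5 and PSMA6 did not pass, at 0.08, 0.10 and 0.12. PSMA6 passed as higher under 8 of the 16 other settings, DESeq2 (0.12), the replicate block and the omission of vehicle replicate 2 (0.16) among them. PSMA5 passed as higher under 4, among them without vehicle replicate 2, at 0.12. PSMA6 shares 14.1% of its exon bases with KIAA0391 on the same strand and has a pseudogene, PSMA6P1, so its counts are less certain. PSMA8, the alpha subunit of testis, was not analysed here.

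Among the constitutive beta genes 6 of 7 rose (85.7%, against 19.4% of all tested genes), with a median log2 fold change of 0.20. The proteolytic sites sit in PSMB6 (beta1, caspase-like), PSMB7 (beta2, trypsin-like) and PSMB5 (beta5, chymotrypsin-like). PSMB6 (ENSG00000142507) had 132 and 142 CPM with AICAR against 118 and 119 CPM with vehicle, a rise of 0.21 ± 0.043 on the log2 scale (SE; edgeR adjusted p = 0.00263). PSMB7 (ENSG00000136930) had 165 and 172 CPM with AICAR and 145 and 149 CPM with vehicle, and rose by 0.20 ± 0.040 (SE). PSMB5 (ENSG00000100804), the site blocked by bortezomib, had 93.1 and 94.5 CPM with AICAR and 86.1 and 90.5 CPM with vehicle. Its libraries did not overlap either, but at 0.09 ± 0.041 it was the beta gene that did not pass (edgeR adjusted p = 0.117). The structural subunits PSMB1, PSMB2, PSMB3 and PSMB4 rose by 0.16 to 0.21. The calls of PSMB2 and PSMB3 were lost without AICAR replicate 2, where each had 0.14.

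The 3 immunoproteasome genes rose as well, where 19.4% of all tested genes rose. PSMB8 (ENSG00000204264, beta5i) had 163 CPM in each AICAR library and 144 and 151 CPM in the vehicle libraries. PSMB9 (ENSG00000240065, beta1i) had 62.7 and 61.8 CPM with AICAR and 54.0 and 54.2 CPM with vehicle. PSMB10 (ENSG00000205220, beta2i) had 106 and 112 CPM with AICAR and 91.9 and 96.5 CPM with vehicle. Each AICAR library lay above each vehicle library for all 3, and the log2 fold changes were 0.14 ± 0.039, 0.20 ± 0.042 and 0.21 ± 0.043 (SE; edgeR adjusted p = 0.0150, 0.00277 and 0.00283). These are GC-rich transcripts, and with trends on GC content and length removed none of the 3 passed, at 0.02, 0.04 and 0.03. The call of PSMB8 was also lost without vehicle replicate 1 and without each AICAR library, where its value was 0.10, 0.14 and 0.14. PSMB8 and PSMB9 share exon bases with each other on opposite strands and with the non-coding TAPSAR1. PSMB11, the beta5 variant of the thymus, was not analysed here.

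The ratio of immune to constitutive transcripts differed little between the groups. By FPKM, PSMB8 made up 58.6 ± 0.99% of the beta5 pair (PSMB8 and PSMB5) with AICAR and 58.1 ± 0.90% with vehicle (SD, n = 2 each). PSMB9 made up 33.1 ± 1.3% of the beta1 pair with AICAR and 33.2 ± 0.17% with vehicle (SD, n = 2 each). PSMB10 made up 39.6 ± 0.50% of the beta2 pair with AICAR and 38.9 ± 0.56% with vehicle (SD, n = 2 each). By FPKM the differences for PSMB8 and PSMB9 were smaller than the larger of their SDs, and that for PSMB10 was not. By CPM the share of PSMB8 was 63.5 ± 0.24% with AICAR and 62.6 ± 0.061% with vehicle (SD, n = 2 each), without overlap. The size of a difference against its SDs thus depended on the unit, and with 2 libraries in each group a two-sided exact permutation test cannot give a p below 0.333.

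**Figure D2:**
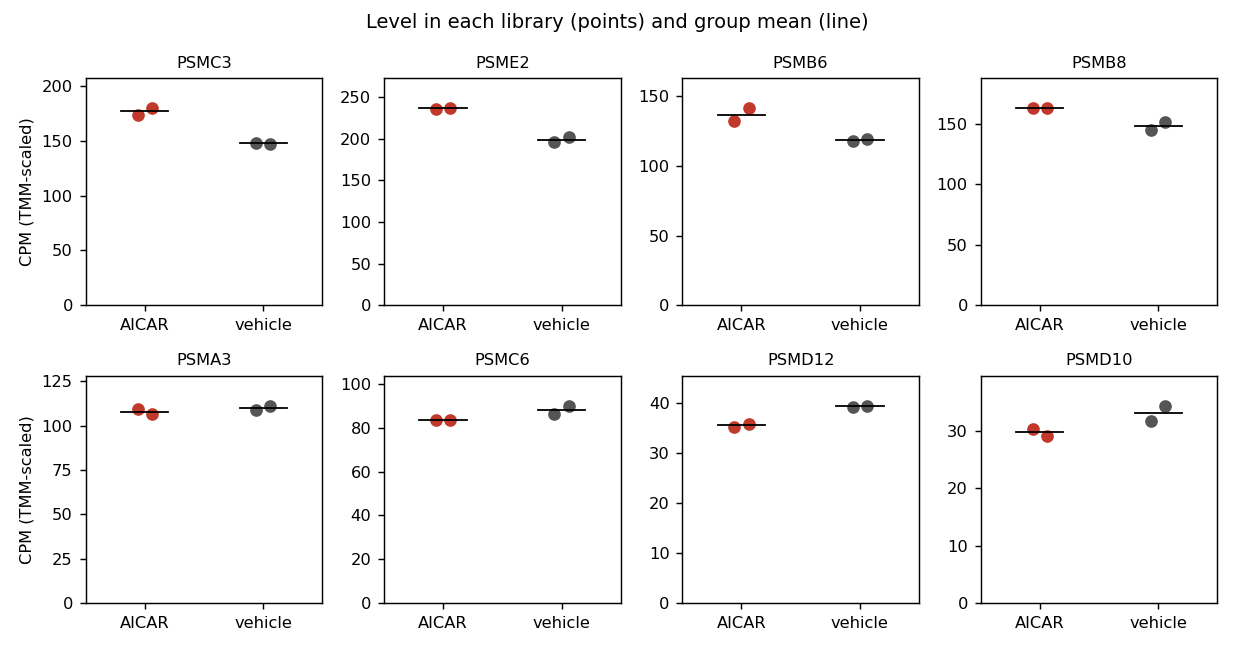
CPM (TMM-scaled, y axis from 0) of 8 proteasome genes in each of the 2 AICAR libraries (left, red) and the 2 vehicle libraries (right, grey), with the group mean as a line. In the upper row (PSMC3, PSME2, PSMB6, PSMB8) both AICAR libraries lie above both vehicle libraries. In the lower row PSMA3 overlaps, and PSMC6, PSMD12 and PSMD10 lie below, of which PSMD12 passed the test.

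In the base of the 19S cap 7 of 9 genes rose (77.8%, against 19.4% of all tested genes), with a median log2 fold change of 0.19. PSMC3 (ENSG00000165916, the ATPase Rpt5) had the largest rise of all 48 genes. It had 174 and 179.8 CPM with AICAR against 148 and 147 CPM with vehicle, a rise of 19.8% or 0.26 ± 0.038 on the log2 scale (SE; edgeR adjusted p = 0.000298). PSMC6 (ENSG00000100519, Rpt4), its partner in the same ring, had 83.6 and 83.7 CPM with AICAR and 86.5 and 90.1 CPM with vehicle. Both AICAR libraries lay below both vehicle libraries, and the change of -0.08 ± 0.040 did not pass (SE; edgeR adjusted p = 0.145). It did pass as lower with total counts alone (-0.14), with genes under 10 CPM left out (-0.12) and with the length trend removed (-0.11). The base subunits that are not ATPases all rose: PSMD1 (Rpn2) by 0.19, PSMD2 (Rpn1) by 0.24 and PSMD4 (Rpn10), a receptor for ubiquitin chains, by 0.22.

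The 6 ATPases form a single ring with equal copies of each, yet their changes ran from -0.08 to 0.26 and followed the base composition of their coding sequences. The share of codons that end in G or C was 73.6% in PSMC3, 71.5% in PSMC4, 61.3% in PSMC5, 46.8% in PSMC1, 43.0% in PSMC2 and 35.7% in PSMC6. The log2 fold changes came in the same order, 0.26, 0.21, 0.18, 0.18, 0.08 and -0.08. Neighbours in this order differed by less than the sum of their standard errors, apart from PSMC1 and PSMC2, and PSMC2 and PSMC6. The coding stretch around the P-loop, the loop that binds ATP, is shown because it is nearly the same protein motif in all 6 genes, so that differences between the sequences are largely a matter of codon use. Being short, it does not carry the order of the whole coding sequences. The bases are from GENCODE 29 on GRCh38, 5′ to 3′ on the coding strand, with the 8 codons of the P-loop in capitals.
PSMC3 (chr11:47422848-47422901, minus strand): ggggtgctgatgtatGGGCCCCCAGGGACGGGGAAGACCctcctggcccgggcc
PSMC4 (chr19:39974756-39974809, plus strand): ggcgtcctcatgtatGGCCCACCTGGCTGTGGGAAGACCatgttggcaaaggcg
PSMC5 (chr17:63830809-63830862, plus strand): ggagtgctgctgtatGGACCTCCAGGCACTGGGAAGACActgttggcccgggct
PSMC1 (chr14:90265136-90268246, plus strand): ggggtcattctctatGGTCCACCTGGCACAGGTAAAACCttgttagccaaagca
PSMC2 (chr7:103364182-103364235, plus strand): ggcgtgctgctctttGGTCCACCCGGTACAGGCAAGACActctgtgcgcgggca
PSMC6 (chr14:52713944-52718109, plus strand): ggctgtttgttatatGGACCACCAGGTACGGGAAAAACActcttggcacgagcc
The stretches of PSMC1 and PSMC6 lie across 2 exons, so their intervals include an intron. Of the 8 P-loop codons, 7 end in G or C in PSMC3, 5 in PSMC4, 3 in PSMC5, 2 in PSMC1, 3 in PSMC2 and 1 in PSMC6. PSMC3 and PSMC6 are thus the extremes here as over their whole coding sequences, while the genes between them are not in the same order. By GC content of the whole stretch PSMC3 was richest at 74.1%, PSMC2 came next at 64.8%, and PSMC1 was poorest, below PSMC6 at 51.9%. With the GC and length trends removed, the values of the ring lay between 0.08 (PSMC6) and 0.19 (PSMC2), and 5 of the 6 passed as higher. PSMC1 counts are less certain, since 3 PSMC1 pseudogenes have rows of their own and 75.8% of its exon bases lie opposite NRDE2, which fell by 0.54 on the log2 scale.

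In the lid 4 of 8 genes rose and 1 fell, with a median log2 fold change of 0.11. PSMD8 (ENSG00000099341, Rpn12), the last subunit to join the lid, had 205 and 216 CPM with AICAR against 177 and 188 CPM with vehicle, a rise of 0.20 ± 0.044 on the log2 scale (SE; edgeR adjusted p = 0.00357). PSMD12 (ENSG00000197170, Rpn5), a scaffold of the lid, had 35.2 and 35.7 CPM with AICAR and 39.2 and 39.4 CPM with vehicle. Its fall of 0.15 on the log2 scale (SE 0.049; edgeR adjusted p = 0.0312) missed the threshold without any single library, where the value ranged from -0.16 to -0.14, and in DESeq2. With the GC and length trends removed it turned to 0.08. PSMD14 (ENSG00000115233, Rpn11), the deubiquitinase that cuts the chain from the substrate, had 119 CPM in each AICAR library and 110.5 and 116 CPM in the vehicle libraries, and did not pass (0.08 ± 0.039, SE; edgeR adjusted p = 0.156). PSMD3, PSMD11 and PSMD13, which are structural subunits, rose by 0.13 to 0.17, and the call of PSMD11 was lost without vehicle replicate 2 and without AICAR replicate 1, at 0.11 in both. PSMD6 and PSMD7 did not pass, at 0.06 and 0.10, although PSMD7 passed without vehicle replicate 2 at 0.12.

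Activators of the core rose in 4 of 5 genes (80.0%), the inhibitor included, against 19.4% of all tested genes. Their class median, 0.21, was the highest. PSME1 and PSME2 encode the alpha and beta chains of PA28, an interferon-inducible cap that works with the immunoproteasome. PSME1 (ENSG00000092010) had 313 and 311 CPM with AICAR and 269 and 269.5 CPM with vehicle, a change of 0.21 ± 0.037 (SE). PSME2 (ENSG00000100911) had 236 and 237 CPM with AICAR and 196 and 201 CPM with vehicle, a change of 0.25 ± 0.037 (SE; edgeR adjusted p = 0.000356). Both chains of PA28 rose, and the groups overlapped for neither. The PSME2 pseudogene PSME2P2 had 123 to 153 counts per library.

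PSME3, the gamma chain of a nuclear PA28, had 86.5 and 85.8 CPM with AICAR and 79.7 and 76.5 CPM with vehicle. It rose by 0.14, and missed the threshold without vehicle replicate 2 (0.10), without AICAR replicate 1 (0.14) and in DESeq2 (0.15). PSMF1, which encodes the core-binding protein PI31, had 76.6 and 77.5 CPM with AICAR and 65.3 and 64.8 CPM with vehicle, and rose by 0.24 ± 0.040 (SE). PSME4, which encodes PA200, the activator linked to histone turnover, had 38.6 and 39.4 CPM with AICAR and 36.7 CPM in each vehicle library. At 0.09 ± 0.049 it did not pass (SE; edgeR adjusted p = 0.184).

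Of the 7 assembly factors 2 rose (28.6%), a share near the 19.4% of all tested genes, and the median log2 fold change was 0.04. Without AICAR replicate 1 the rises numbered 3, and without AICAR replicate 2 or vehicle replicate 2 there was 1. PSMG1 and PSMG2 form the chaperone pair that starts the alpha ring. PSMG1 (PAC1) had 77.9 and 74.4 CPM with AICAR and 72.2 and 75.6 CPM with vehicle, and PSMG2 (PAC2) had 60.0 and 57.9 CPM with AICAR and 58.9 and 61.0 CPM with vehicle. The groups overlapped for both, with log2 fold changes of 0.04 and -0.02. PSMG3 (PAC3) had 22.3 and 25.8 CPM with AICAR and 20.9 and 22.6 CPM with vehicle, which also overlapped (0.14 ± 0.077, SE), and it passed as higher without AICAR replicate 1, at 0.25. Its partner PSMG4 (PAC4) had 32.2 and 32.5 CPM with AICAR and 28.8 and 28.2 CPM with vehicle. PSMG4 rose by 0.18 ± 0.053 (SE; edgeR adjusted p = 0.0163), a call lost without vehicle replicate 2, without AICAR replicate 2 and in DESeq2.

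Of the 3 chaperones of the 19S ATPases, PSMD9 passed as higher. PSMD10 and PSMD5 had negative values and did not pass. With the GC and length trends removed none of the 3 passed, at 0.082 (PSMD9), -0.12 (PSMD10) and -0.012 (PSMD5). PSMD9 (p27) had 85.9 and 90.3 CPM with AICAR and 73.9 and 80.8 CPM with vehicle, and rose by 0.19 ± 0.049 (SE; edgeR adjusted p = 0.0103), which was 0.12 without vehicle replicate 1. PSMD10 (gankyrin) had 30.4 and 29.1 CPM with AICAR and 31.8 and 34.4 CPM with vehicle, a change of -0.15 ± 0.059 (SE; edgeR adjusted p = 0.0584). It passed as lower without vehicle replicate 1, at -0.21. PSMD5 (S5b) had 19.8 and 17.3 CPM with AICAR and 20.6 and 20.1 CPM with vehicle, at -0.14 ± 0.075 (SE; edgeR adjusted p = 0.177), and it passed as lower without AICAR replicate 1, at -0.23. PSMD5-AS1, the antisense RNA named after PSMD5, fell by 0.63 ± 0.089 (SE; edgeR adjusted p = 0.000237), with 7.58 and 8.32 CPM with AICAR and 12.2 and 12.4 CPM with vehicle.

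The 2 remaining rows are no known subunits. PSMC3IP, a recombination factor named for binding PSMC3, did not pass (0.17 ± 0.079, SE). A second row under the name PSMA2, ENSG00000256646, had 12.7 and 12.4 CPM with AICAR against 19.1 and 19.4 CPM with vehicle and fell 1.53-fold (log2 fold change -0.62 ± 0.070, SE; edgeR adjusted p = 5.02e-05). In GENCODE 29 this locus shares 25.5% of its exon bases with PSMA2 and 64.7% with C7orf25, both on its own strand. C7orf25 had a log2 fold change of -0.62 as well, with an SE of 0.419, and did not pass. Reads could be split among these genes, so the value of the second row is uncertain. Overlaps of over 10% of exon bases with other genes, which leave counts less certain, were also found for PSMA2, PSMB10, PSMC5, PSMD7, PSMD9, PSMG2 and PSMC3IP.

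Per unit length the subunit transcripts were far from equal, although the particle holds equal copies of each core subunit. Over the 4 libraries the 14 constitutive core genes ranged 10.1-fold in FPKM. PSMA6 (alpha1) had the highest mean, 512 and 516 FPKM with AICAR against 484 and 479 FPKM with vehicle. PSMB2 (beta4) had the lowest, 50.2 and 51.6 FPKM with AICAR and 48.7 and 45.9 FPKM with vehicle. The 17 genes of the cap ranged 8.14-fold, between PSMD12, with 19.5 and 18.8 FPKM with AICAR and 22.0 and 20.9 FPKM with vehicle, and PSMD8, with 170.2 and 175 FPKM with AICAR and 156 and 161 FPKM with vehicle. Median levels were 201 FPKM with AICAR and 186 FPKM with vehicle for the core genes, and 69.2 FPKM with AICAR and 66.8 FPKM with vehicle for the cap genes. PSME1 and PSME2 lay between 292 and 353 FPKM in every library, and PSME4 between 7.25 and 7.80 FPKM. The differences in level between these genes were larger than the differences between the groups.

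**Figure D3:**
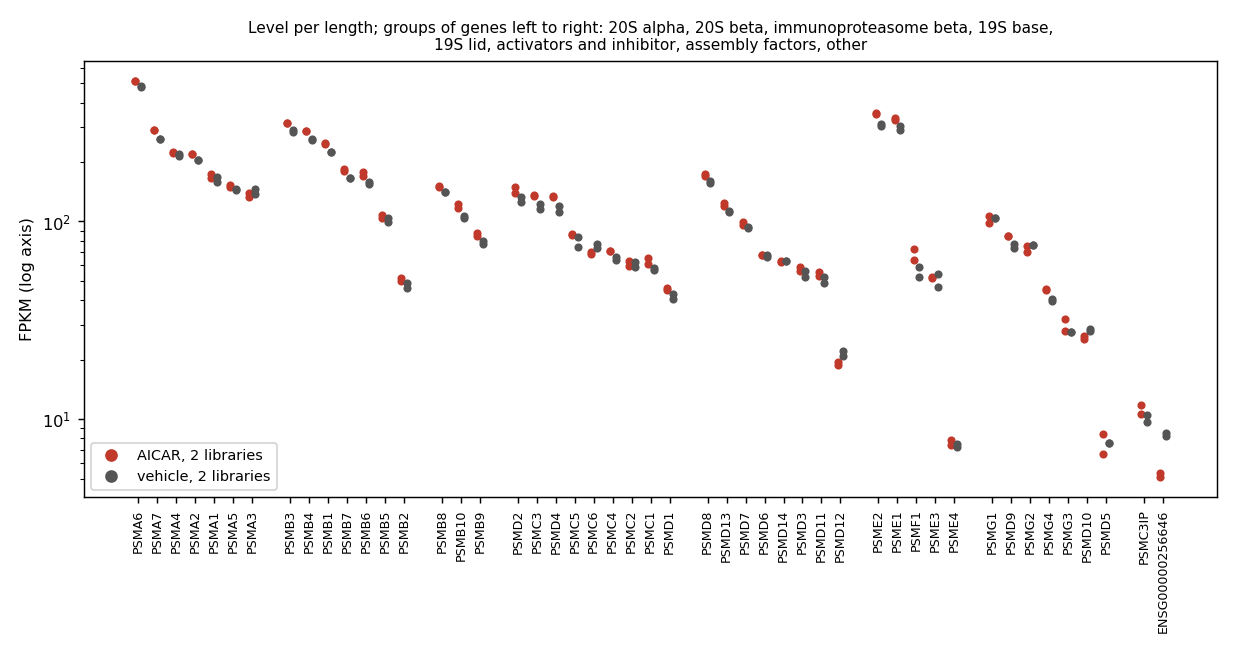
Deposited FPKM (log axis) of each gene in the 2 AICAR libraries (red, left of each position) and the 2 vehicle libraries (grey, right), ordered by mean level within each class. PSMA6 stands highest, at up to 516 FPKM, and the lowest values belong to PSME4, PSMD5 and the row ENSG00000256646, and the groups lie close together for each gene.

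The association with base composition seen in the ATPase ring held across the proteasome genes and, more weakly, across the transcriptome. Over the 46 proteasome genes with a GENCODE 29 sequence, log2 fold change and transcript GC content had r = 0.67 and rho = 0.71. Over 11125 tested protein-coding genes the values were r = 0.23 and rho = 0.40. With the share of codons ending in G or C, the measure used for the ring, the values were lower. They were r = 0.60 and rho = 0.66 over 46 proteasome genes, and r = 0.19 and rho = 0.34 over 11086 tested protein-coding genes. Log2 fold change also went with level. Against log2 FPKM, r was 0.56 and rho 0.42 over the 48 proteasome genes, and 0.26 and 0.32 over 11444 tested protein-coding genes. Proteasome genes were well expressed. With genes under a mean of 10 CPM left out, 27 of them rose, and 25.3% of all genes rose. The parts of level and base composition were not tested apart. These are correlations across genes that share the same 4 libraries, and genes are not independent replicates. Among proteasome genes under 45% GC, 3 of 15 rose and the median was 0.08, against 6.65% and a median of -0.11 for all protein-coding genes of that range. Between 45% and 50% GC, 7 of 10 rose with a median of 0.14, against 20.4% and 0.01 for all. Between 50% and 55%, 11 of 13 rose with a median of 0.21, against 29.2% and 0.07 for all. At 55% or more 7 of 8 rose with a median of 0.20, against 36.0% and 0.14 for all. The proteasome median was above that of all protein-coding genes in each range, by least in the GC-richest.

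Over transcript length the share of genes that rose differed among all tested protein-coding genes but hardly among proteasome genes. The log2 fold changes of proteasome genes nevertheless went with length. Against log2 effective length, r was -0.29 and rho -0.23 over the 48 proteasome genes. Over 11222 tested protein-coding genes r was -0.095 and rho -0.16. Under 1000 bases of effective length 12 of 19 proteasome genes rose, against 34.8% of all protein-coding genes. Between 1000 and 2000 bases 14 of 23 rose, against 21.5% of all, and between 2000 and 4000 bases 3 of 5 rose, against 18.1% of all. The only longer gene, PSME4, did not pass. With loess trends on GC content and length removed, an alternative chosen after the data had been seen, 27 proteasome genes rose and 1 fell, with a median of 0.10 against 0.01 for all tested genes, and 18.7% of all genes rose. The genes were then partly others. PSMA4, PSMA5, PSMA6, PSMC2, PSMD7, PSMD14 and PSME4 passed as higher in addition, with PSMA5 highest of these at 0.23. PSMA1, PSMB3, PSMB6, PSMB8, PSMB9, PSMB10, PSMD8, PSMD9 and PSMG4 no longer passed.

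**Figure D4:**
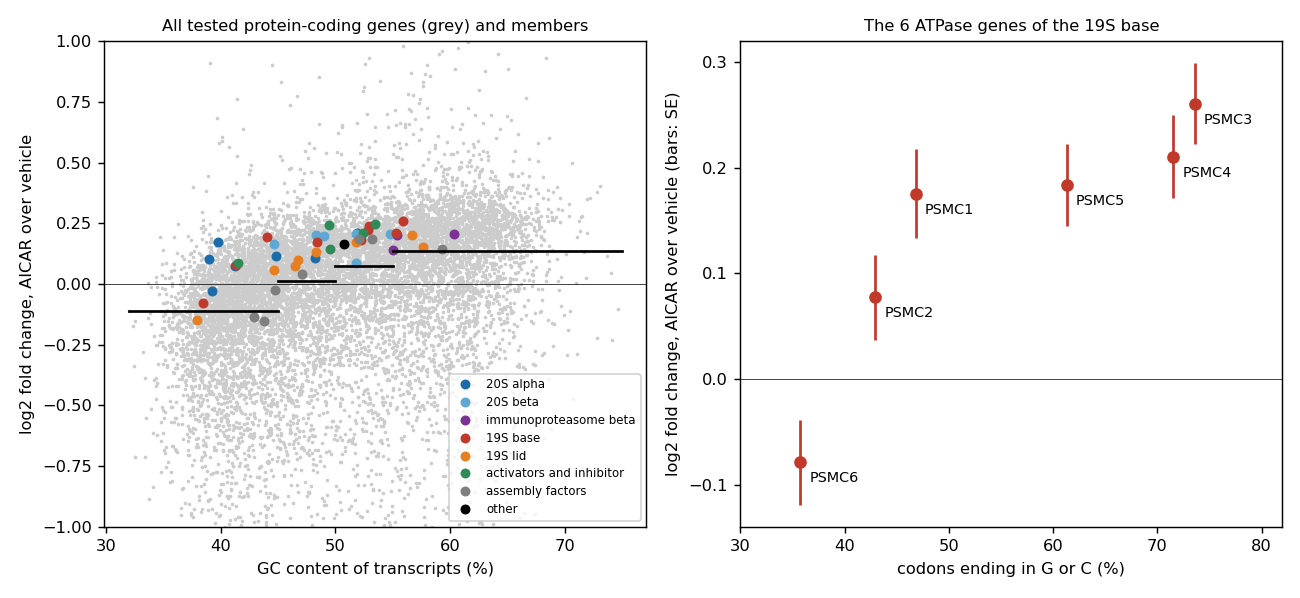
Left, log2 fold change (AICAR over vehicle) against transcript GC content for all tested protein-coding genes (grey; values beyond -1 and 1 are outside the axis) and the proteasome genes (coloured by class), with black bars at the median of all protein-coding genes under 45%, from 45% to 50%, from 50% to 55% and above. Right, the 6 ATPase genes against the share of codons ending in G or C, with standard errors: PSMC6 is lowest on both axes and PSMC3 highest on both.

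Promoters were compared for motifs of factors that act on proteasome genes. RefSeq windows on GRCh38.p14, from 250 bases before to 50 after the start site, matched 41 of the 48 genes by symbol, and motifs were searched on both strands. The antioxidant response element core TGACNNNGC, bound by NFE2L1 and NFE2L2, occurred in 15 of 41 genes (36.6%), against 19.6% of tested protein-coding genes. The ETS core TTCCGG occurred in 53.7% against 36.6%, and CCAAT in 48.8% against 43.7%. The STAT palindrome TTCNNNGAA occurred in 17.1% against 8.46%, and the E-box CACGTG in 7.32% against 12.9%. Some genes had several windows, so shares of windows are given apart. They are set against all 35116 windows, which include genes not tested here. The shares by gene were set against 8685 tested protein-coding genes, so the 2 contrasts are not alike. TGACNNNGC was in 29.4% of the 51 windows of proteasome genes and in 13.3% of all windows. In the same order, the shares were 45.1% and 17.2% for the ETS core and 41.2% and 34.6% for CCAAT. They were 13.7% and 7.66% for the STAT palindrome and 5.88% and 7.26% for the E-box. The motif TGACNNNGC was in 9 of the 24 genes that rose and in 6 of the other 17. In the same order, the ETS core was in 11 and 11, CCAAT in 9 and 11, the STAT palindrome in 6 and 1, and the E-box in 3 and 0. These splits were not tested. The stretches below are examples chosen from genes with different log2 fold changes, with the match in capitals on the strand of the gene. With the GC and length trends removed, PSME2 had 0.096, PSMB3 0.072, PSMA4 0.15 and PSMD12 0.081, so these differences depended on the setting. Whether the motif bears on the changes was not tested.
PSME2, log2 fold change 0.25 (chr14:24146752-24146810, minus strand): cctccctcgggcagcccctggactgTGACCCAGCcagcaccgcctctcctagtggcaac
PSMB3, log2 fold change 0.16 (chr17:38752612-38752670, plus strand): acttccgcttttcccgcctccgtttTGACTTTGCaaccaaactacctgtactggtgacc
PSMA4, log2 fold change 0.08 (chr15:78540635-78540693, plus strand): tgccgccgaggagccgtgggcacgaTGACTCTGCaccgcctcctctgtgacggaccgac
PSMD12, log2 fold change -0.15 (chr17:67366709-67366767, minus strand): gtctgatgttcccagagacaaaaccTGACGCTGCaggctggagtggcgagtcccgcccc
A match describes letters in the window and does not show that a factor binds there.

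Genes that process, partner or parallel NFE2L1 were examined as a list. Of its 11 tested genes 1 rose (9.09%) and 4 fell (36.4%), against 19.4% and 19.7% of all tested genes. The median log2 fold change was -0.02. The number of rises in this list depended on the setting, as given in the last section. NFE2L1 itself had 75.4 and 73.3 CPM with AICAR and 74.0 and 69.5 CPM with vehicle, overlapping at 0.05 ± 0.045 (SE; edgeR adjusted p = 0.405). VCP, the ATPase that extracts NFE2L1 from the endoplasmic reticulum, rose by 0.32. HERPUD1, a factor of degradation at the endoplasmic reticulum, fell by 0.78. NFE2L2 and the small MAF partners MAFG and MAFK, which bind the same element, fell by 0.66, 0.61 and 0.75. NFE2L2 had 21.3 CPM in each AICAR library, against 33.4 and 34.0 CPM in the vehicle libraries.

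Of 14 tested partners of the proteasome outside the name rule, 4 rose (28.6%) and 3 fell (21.4%), shares near the 19.4% and 19.7% of all tested genes, and the median was 0.03. SHFM1, a small lid subunit, rose by 0.26 and ADRM1 (Rpn13), a ubiquitin receptor of the base, by 0.25. POMP, the maturation factor of the core, had 140.4 and 138 CPM with AICAR and 127 and 146 CPM with vehicle, and overlapped at 0.03 ± 0.057 (SE). AKIRIN2, which brings proteasomes into the nucleus, fell by 0.56, with 10.2 and 10.4 CPM with AICAR and 15.4 and 15.1 CPM with vehicle.

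Upstream of the proteasome, 4 of 6 ubiquitin genes rose (66.7%) and 1 fell (16.7%). Of all tested genes 19.4% rose and 19.7% fell, so the share of this list that fell was near that of all. UBA1, the main ubiquitin-activating enzyme, rose by 0.35, and UBA6, the alternative enzyme, fell by 0.18, a call lost without AICAR replicate 2 and in DESeq2. Of 7 shuttle factors, which carry ubiquitylated proteins to the cap, 3 rose (42.9%), among them UBQLN4 by 0.27 and NUB1 by 0.15. Downstream, 6 of 12 tested genes of peptide processing for MHC class I rose and 1 fell. TAPBP (tapasin), which loads peptides, rose by 0.34. IRF1, a transcription factor of the immunoproteasome genes, fell by 1.59 on the log2 scale, with 15.6 and 16.2 CPM with AICAR and 47.4 and 48.2 CPM with vehicle. Whether this fall bears on PSMB8, PSMB9 and PSMB10 was not tested.

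Other large complexes gave a scale for these counts. The COP9 signalosome, which resembles the lid in architecture, had 2 rises and 1 fall among 9 genes and a median of 0.08, and 1 rise without AICAR replicate 2. Its shares higher and lower were 22.2% and 11.1%, against 19.4% and 19.7% of all tested genes. Its highest member was COPS6 at 0.23 and its lowest COPS2 at -0.27. The chaperonin TRiC had 4 rises among 8 genes, or 1 without AICAR replicate 2, and a median of 0.11, with CCT7 highest at 0.22. The translation factor eIF3, of which some subunits share folds with the lid, had 10 rises among 13 genes and a median of 0.25, with EIF3B highest at 0.34. The proteasome, with 60.4% of its genes higher and a median of 0.16, stood between TRiC and eIF3 with these settings, but with the length trend or the GC and length trends removed all 8 TRiC genes rose, against 28 and 27 of the 48 proteasome genes. The complexes were not tested against each other.

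**Figure D5:**
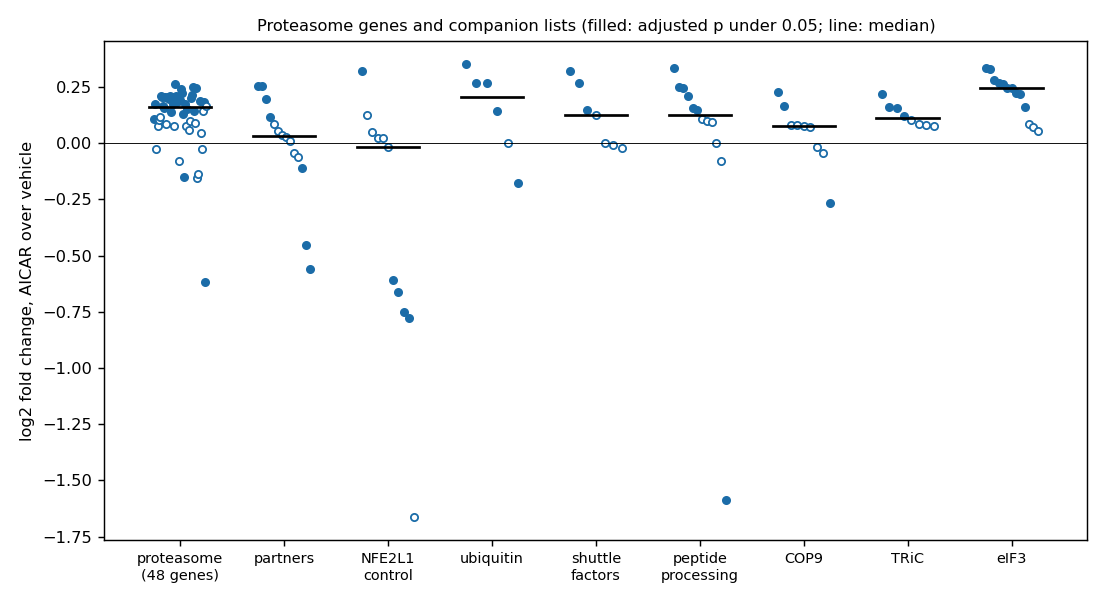
Log2 fold change (AICAR over vehicle) of the 48 proteasome genes and of 8 companion lists, one point per gene, filled where the adjusted p was under 0.05, with the median of each list as a line. Medians are 0.16 for the proteasome genes and 0.25 for eIF3, and the lowest filled point is IRF1 at -1.59 in the peptide processing list.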

How the data were processed

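Expected counts and FPKM per gene and library were deposited by the authors, as were the log2 fold changes and q-values of their own comparison, per the file headers. Trimmomatic 0.32, the aligner STAR 2.5.3a, the quantifier RSEM 1.2.31, DESeq2 and, as genome build, hg19 are listed by name in the submitters' processing notes. Annotation, settings and whether strand was used in counting are not given in the sources used here. Per the labels' protocols, libraries came from a stranded total RNA kit and were read as single reads of 75 bases. FPKM were used only as levels per length.

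Expected counts were rounded, passed through filterByExpr (count minimum of 10, total minimum of 15) and TMM-scaled. The groups were compared by the quasi-likelihood F test of edgeR 4.0.16 (two-sided, R 4.3.3), fitted on all genes, with Benjamini-Hochberg adjustment over the 13626 tested and a threshold of 0.05. The procedure was also run on simulated counts in which few genes changed, which cannot speak to the dependence on scaling seen here. The common biological coefficient of variation was 3.63%. Replicates differed by more than sampling noise (chi-square per gene of 2.91 for AICAR and 8.35 for vehicle, where sampling alone gives 1).

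The proteasome genes, their classes and the companion lists were chosen with earlier results of these data known. Values in every library are given for the highest and lowest gene of each class, the catalytic beta genes, PSMD14, activators, assembly factors, POMP and NFE2L1, and the highest and lowest changed gene of each list is named, except 1 that is not reported here; NFE2L2 and MAF genes, ADRM1 and genes whose call changed were added after their values were seen. Transcript GC content and coding sequences came from GENCODE 29 (GRCh38), matched by identifier for 97.2% of tested protein-coding genes; promoter sequences came from RefSeq (GRCh38.p14). Coordinates are on those builds and not on the build of the counts. The alternatives were other scalings, filters and tests (DESeq2 1.42.0, limma 3.58.1), protein-coding genes alone, trends on length or on GC content and length removed (loess, span 0.5), a replicate block, a threshold of 0.01, and each library left out in turn. Figures were drawn with matplotlib 3.10.9.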

Additional observations from a re-analysis of the deposited data

How the results depend on the processing

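With a replicate block 31 proteasome genes rose and 2 fell; replicate numbers did not pair the libraries (r = -0.05 between deviations of same-numbered libraries over 13626 genes). The block gave 5 rises among the 20S alpha genes, as did upper-quartile factors and the removal of GC and length trends, against 3. Over all settings the genes of the proteasome that rose numbered 15 (total counts alone) or 22 to 32. The share of all tested genes that passed moved with the setting too, so these counts do not speak of the proteasome genes alone. From no filter to a minimum of 10 CPM, the lowest and highest shares, 8.79% and 25.3% of all tested genes rose. In the same order 9.63% and 28.0% fell. The genes that fell numbered 1 with no filter, in DESeq2, with GC and length trends removed and at a threshold of 0.01, and 4 with a minimum of 10 CPM, with total counts alone and with the length trend removed. Leaving out 1 library at a time gave 24 to 28 rises and 1 to 2 falls.

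By class, rises of the 20S alpha genes were 1 with no filter and with total counts alone, and the length trend removed gave 1 fall. Immunoproteasome rises were 1 with total counts alone and 0 with GC and length trends removed. The 19S base had 1 fall with a minimum of 10 CPM, total counts alone and the length trend removed. The lid had 1 rise with total counts alone, and 0 falls with no filter, in DESeq2, with either trend removal, at 0.01 and without each library (lowest 0, highest 0). Assembly factors had 0 rises with total counts alone, GC and length trends removed and at 0.01, and 1 with no filter, in DESeq2, with the length trend removed and without vehicle replicate 2 or AICAR replicate 2 (1 to 3 over the libraries left out). They had 1 fall with a minimum of 10 CPM, total counts alone, protein-coding genes alone and the length trend removed, and 0 to 1 over the libraries left out. Where a count was 0, at most 2 genes had an unadjusted p under 0.05 in the same test.

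Companion lists moved likewise. With total counts alone partners had 2 rises, COP9 genes 0 and TRiC 1. With the length trend removed the NFE2L1 list had 2 rises and TRiC 8. With GC and length trends removed the NFE2L1 list had 4 rises, shuttle factors 5 and TRiC 8, and COP9 genes 0 falls. A minimum of 10 CPM gave 2 falls in peptide processing. The fall in the ubiquitin list was lost (0) with no filter, in DESeq2, with the length trend removed and at 0.01. Over the libraries left out, rises numbered 1 to 2 in the NFE2L1 list, 1 to 2 for COP9 genes and 1 to 5 for TRiC, and falls in the ubiquitin list 0 to 1.

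The median log2 fold change of the proteasome genes was 0.17 with upper-quartile factors, 0.12 with a minimum of 10 CPM and with the length trend removed, 0.10 with total counts alone and with GC and length trends removed, and 0.14 to 0.16 over the libraries left out. Total counts alone gave 0.048 (20S alpha), 0.14 (20S beta), 0.14 (immunoproteasome), 0.13 (base), 0.055 (lid), 0.15 (activators) and -0.016 (assembly factors), and shifted the median of all genes by -0.06. The length trend removed gave 0.050, 0.13 and 0.11 for the first 3 of these, 0.15 for activators and -0.044 for assembly factors. GC and length trends removed gave 0.10 for 20S beta, 0.031 for the immunoproteasome, 0.15 for the base, 0.14 for activators and -0.025 for assembly factors. A minimum of 10 CPM gave 0.16 for 20S beta, 0.15 for the base, 0.075 for the lid and 0.17 for activators. Over the libraries left out 20S beta had 0.16 to 0.23 and the lid 0.10 to 0.13.

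Of single genes, these changed sign. With GC and length trends removed PSMA3 had 0.063, PSMB5 -0.023, PSMC6 0.082, PSMD12 0.081, PSMG1 -0.025 and PSMG3 -0.039. Total counts alone gave -0.0016 for PSMD6 and -0.016 for PSMG1, the length trend removed gave -0.044 for PSMG1, and PSMG2 ranged from -0.051 to 0.0037 over the libraries left out. By CPM, PSMB8 made up 63.5% of its pair with AICAR and 62.6% with vehicle, PSMB9 31.3% in both, and the summed ratio was 1.11. The cause of these shifts was not tested. With 2 libraries in each group and rises of at most 19.8%, many calls lie near the threshold.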
